A study of Caenorhabditis elegans with 20 samples.

Results

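The comparison described here sets sorted male Z1/Z4 cells against whole males at 9.5 hr of feeding in *Caenorhabditis elegans*, with 3 samples in each group. They are 6 of the 20 samples of the series, and the genes described are the 11969 of 19861 named genes that reached 5 FPKM in at least 1 of both groups. FPKM, the deposited measure of RNA level, corrects a count of reads for transcript length and for library depth. All animals of both groups came from strain DZ683, which carries *tra-2(ar221)*, *xol-1(y9)* and *rdIs4*, an integrated array with Venus fluorescent protein under the *ehn-3a* promoter. The larvae were XX animals that develop as males at the restrictive temperature because of the conditional *tra-2* mutation, so they were pseudomales and not XO males. The *xol-1* mutation kills XO animals. Larvae hatched without food, were fed for 9.5 hr and were dissociated. The gonadal cells were sorted by Venus fluorescence, and the whole-animal samples were dissociated cells of the same strain that had not been sorted.

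Z1 and Z4 are the somatic gonadal precursors of the first larval stage. They flank the primordial germ cells, and their descendants form every somatic tissue of the gonad, from the distal tip and linker cells to the sheath, seminal vesicle and vas deferens. Their divisions place those tissues along the axes of the organ, under Wnt and beta-catenin asymmetry signals, and differ between the sexes under the control of TRA-1, the last regulator of the sex determination pathway. The precursors are a very small share of the cells of a larva, so a whole-animal sample contains them but is made up mainly of nerve, muscle, skin, gut and pharynx.

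For some of the enriched genes the study fused upstream DNA to a green fluorescent reporter, and primers mark the ends of those fragments. The *pes-1* and *ckb-3* reporters were among those expressed in the precursors, whereas those of *xtr-2*, *pho-10* and T13F3.8 were not. For these the paper offers missing regulatory elements or false positives as possible reasons. The primers for *pes-1* (a forkhead transcription factor) and *ckb-3* (a choline kinase of phospholipid synthesis) are given 5′ to 3′. Lower case marks the added tail with its restriction site, and capitals mark the bases designed to match worm DNA. The genes themselves lie at chrIV:5002744-5005339 and chrIII:4370857-4372792 in ce10, the build of the deposited tables. These are the loci of the FPKM values, and the primers were not mapped to the genome here.
pes-1 upstream primer: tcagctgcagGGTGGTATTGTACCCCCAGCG
pes-1 downstream primer: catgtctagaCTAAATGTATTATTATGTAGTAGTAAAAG
ckb-3 upstream primer: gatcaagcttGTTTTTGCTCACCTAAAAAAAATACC
ckb-3 downstream primer: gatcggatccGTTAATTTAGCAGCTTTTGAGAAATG

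Both genes were far more abundant in the sorted cells, and the study picked them for reporters because of their enrichment in these data, so their values are a description. *pes-1* had 39.2 FPKM in male gonadal cells against 1.36 in male whole animals. *ckb-3* had 277 FPKM in gonadal cells against 18.8 in whole animals. Each group has 1 deposited value per gene, pooled by the authors over its 3 samples, so no value here has a replicate error, no test over samples was run, and the depth of each sample is unknown.

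Each difference is given as a log2 ratio, the log2 of gonadal FPKM plus 1 over whole-animal FPKM plus 1, which understates the change of genes with low values. Genes with a ratio of 2 or more are called gonad-enriched, and those with −2 or less gonad-depleted. By this rule 471 genes were gonad-enriched (3.94% of those that passed) and 1985 were gonad-depleted (16.6%). In bulk RNA, fewer cells of a type and less RNA per cell cannot be told apart. The ratio was above 0 for 6225 genes (52.0%), with a median of 0.06, and its 5th and 95th percentiles were −2.68 and 1.77. Enriched genes had a median of 46.7 FPKM in gonadal cells against 4.65 in whole animals, and depleted genes had medians of 3.77 FPKM in gonadal cells against 28.7 in whole animals. The genes nearest the thresholds were *tra-1*, just inside the enriched rule at 286 FPKM in gonadal cells against 70.6 in whole animals, and ZK632.10, just outside it at 70.9 and 17.0 FPKM. For depletion they were *nlp-31*, just inside at 13.3 FPKM in gonadal cells against 56.2 in whole animals, and C09G12.1, just outside with 7.42 FPKM in whole animals.

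**Figure D1:**
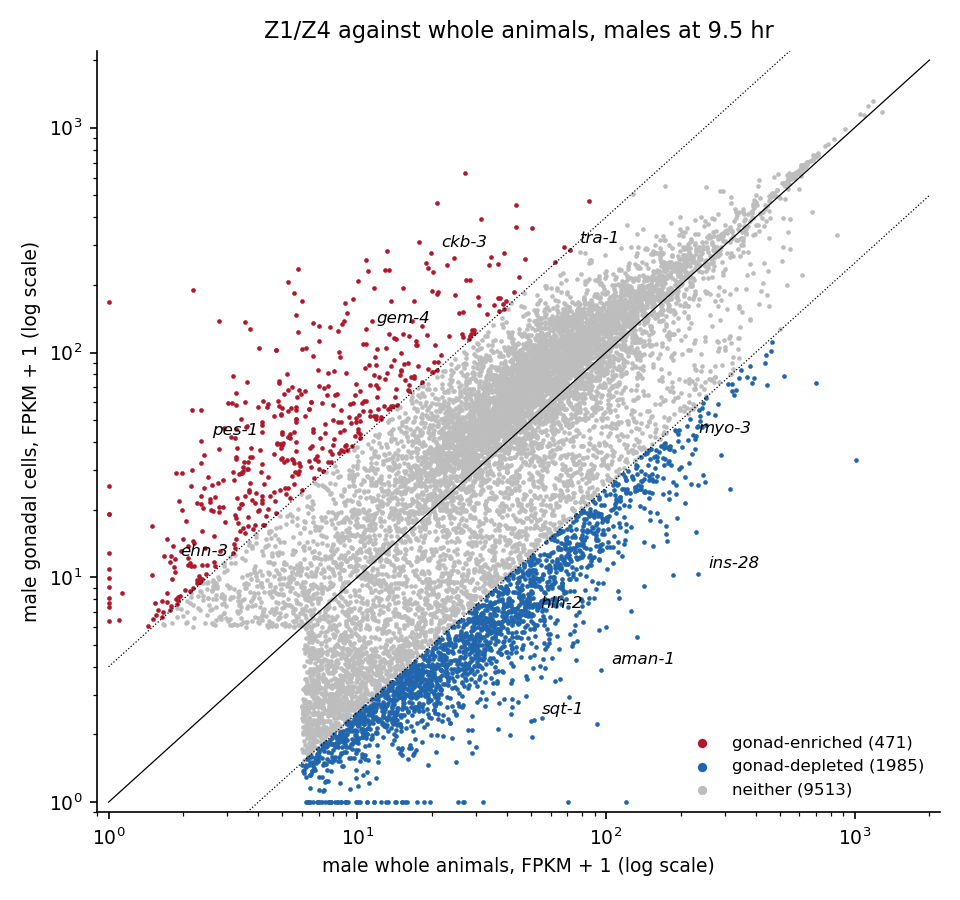
Each point is a gene with at least 5 FPKM in the higher group, with FPKM plus 1 in male gonadal cells on the vertical axis and in male whole animals on the horizontal axis, both log scales. The solid line marks equal values and the dotted lines a 4-fold difference. The 471 enriched genes lie above the upper dotted line and the 1985 depleted genes below the lower one.

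The sorted cells were described with a list of somatic gonad markers, which was chosen with earlier results of these data known. The list includes *pes-1* and *ckb-3*, which are no independent sign. Of 12 such genes that passed, 8 were enriched, 1 was depleted and the median ratio was 2.87, against 0.06 over all genes. Besides *pes-1* and *ckb-3*, the enriched markers were *gem-4*, a copine that acts with the gonadal channel gene *gon-2*, *inx-8* and *inx-9*, gap junction subunits of the gonadal sheath, the forkhead gene *fkh-6*, the zinc finger gene *ehn-3*, and *tra-1*. *gem-4* had 126 FPKM in gonadal cells against 9.85 in whole animals. *inx-8* had 36.4 FPKM in gonadal cells against 2.29 in whole animals, and *inx-9* had 19.3 and 1.41 FPKM in the same order. *ehn-3* had 10.7 FPKM in gonadal cells against 0.760 in whole animals, but its promoter drove the Venus used for the sort, so it is no independent sign either. *lim-7*, a LIM homeodomain gene used as a marker of the later sheath, went the other way with 10.2 FPKM in gonadal cells against 63.4 in whole animals.

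Summed markers of nerve, muscle, pharynx, gut and skin were lower in the sorted cells, but no marker that passed was listed at 0. The summed FPKM of the 29 neuronal markers was 1520 in gonadal cells against 4352 in whole animals. Of the 28 neuronal markers that passed, 15 were depleted and none was enriched. Body wall muscle (13 markers) summed to 1056 FPKM in gonadal cells against 2859 in whole animals. In the same order pharynx (14) summed to 274 and 1297 FPKM, intestine (20) to 579 and 1330 FPKM, and hypodermis (18) to 241 and 567 FPKM. The 6 coelomocyte markers summed to 72.4 FPKM in gonadal cells against 492 in whole animals, the lowest ratio of sums among the marker lists (0.147). The 27 germline markers summed to 735 FPKM in gonadal cells against 660 in whole animals (1.11). Of the 18 germline markers that passed, 7 had a log2 ratio above 0 and 11 below, with a median of −0.65. Expressed as gonadal over whole-animal sums, the values were 0.349 for neurons, 0.369 for muscle, 0.211 for pharynx, 0.436 for intestine and 0.426 for hypodermis. Median log2 ratios of the markers that passed were, in the same order of lists, −2.11, −1.97, −2.46, −1.36 and −2.78. Transcripts of these markers were thus detected in the sorted samples too, and their part in the ratios of other genes was not tested.

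Genes were matched to the lists below by their names in the deposited table, and where current symbols change a call both counts are given.

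The study names 12 genes as known to act or to be expressed in the precursors, and all 12 passed. Of these, 3 were enriched, none was depleted and 11 had a ratio above 0, with a median of 0.77. The enriched members were *gem-4* (ratio 3.55), *fkh-6* (3.01) and *tra-1* (2.00), which were also counted among the somatic gonad markers above. *fkh-6*, whose loss disturbs the early gonadal divisions in both sexes, had 42.2 FPKM in gonadal cells against 4.34 in whole animals, at a locus whose span it shares with another gene. *tra-1*, the GLI-type zinc finger regulator of sexual fate, was among the most abundant enriched genes, although its ratio was under 2 when the groups were scaled to the same total or centred on the median gene. *lin-26*, a zinc finger gene of epithelial and gonadal fate at a shared locus, followed with 91.6 FPKM in gonadal cells against 30.2 in whole animals. *cyd-1*, the D-type cyclin that precursor divisions need, had 37.8 and 17.8 FPKM, and *ceh-22*, an Nkx homeodomain gene of the proximal-distal axis that the pharynx also expresses, had 37.2 FPKM in gonadal cells against 18.7 in whole animals.

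The other members of that list were closer to even. The gonadogenesis genes *gon-4* and *gon-14* had ratios of 0.59 and 0.54. *sys-1*, the beta-catenin of asymmetric divisions, had 20.2 FPKM in gonadal cells against 13.5 in whole animals. *dsh-2*, a Dishevelled protein, and *gon-2*, a TRPM channel, had ratios of 0.44 and 0.28. *pop-1*, the TCF factor that works with SYS-1, was the only member below 0, with 57.4 FPKM in gonadal cells against 102 in whole animals.

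Of 24 further genes with roles in gonad formation, 7 were enriched and 5 depleted, and the median was 0.25. The enriched ones include *pes-1* and *ckb-3*, which are no independent sign here either. *cog-1*, an Nkx6-type homeodomain gene, had 80.1 FPKM in gonadal cells against 12.1 in whole animals. *egl-43*, an EVI1-type zinc finger gene that shares its locus span, had 259 FPKM in gonadal cells against 46.2 in whole animals. *lag-2*, the Notch ligand of the distal tip, had 46.6 and 14.1 FPKM (ratio 1.65), and *nhr-25*, an FTZ-F1-type nuclear receptor, had 111 and 34.1 FPKM (1.67), both values in the same order and both short of the rule. There were 4 depleted members besides *lim-7*. *gon-1*, the ADAMTS protease of gonadal leader cell migration, had 6.89 FPKM in gonadal cells against 61.6 in whole animals. *hlh-2*, the E/Daughterless factor, had 5.86 and 48.7 FPKM, *mig-17*, a secreted ADAM protease whose gene shares its locus span, had 0.931 and 9.86 FPKM, and the Hox gene *lin-39* had 8.16 and 47.0 FPKM.

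**Figure D2:**
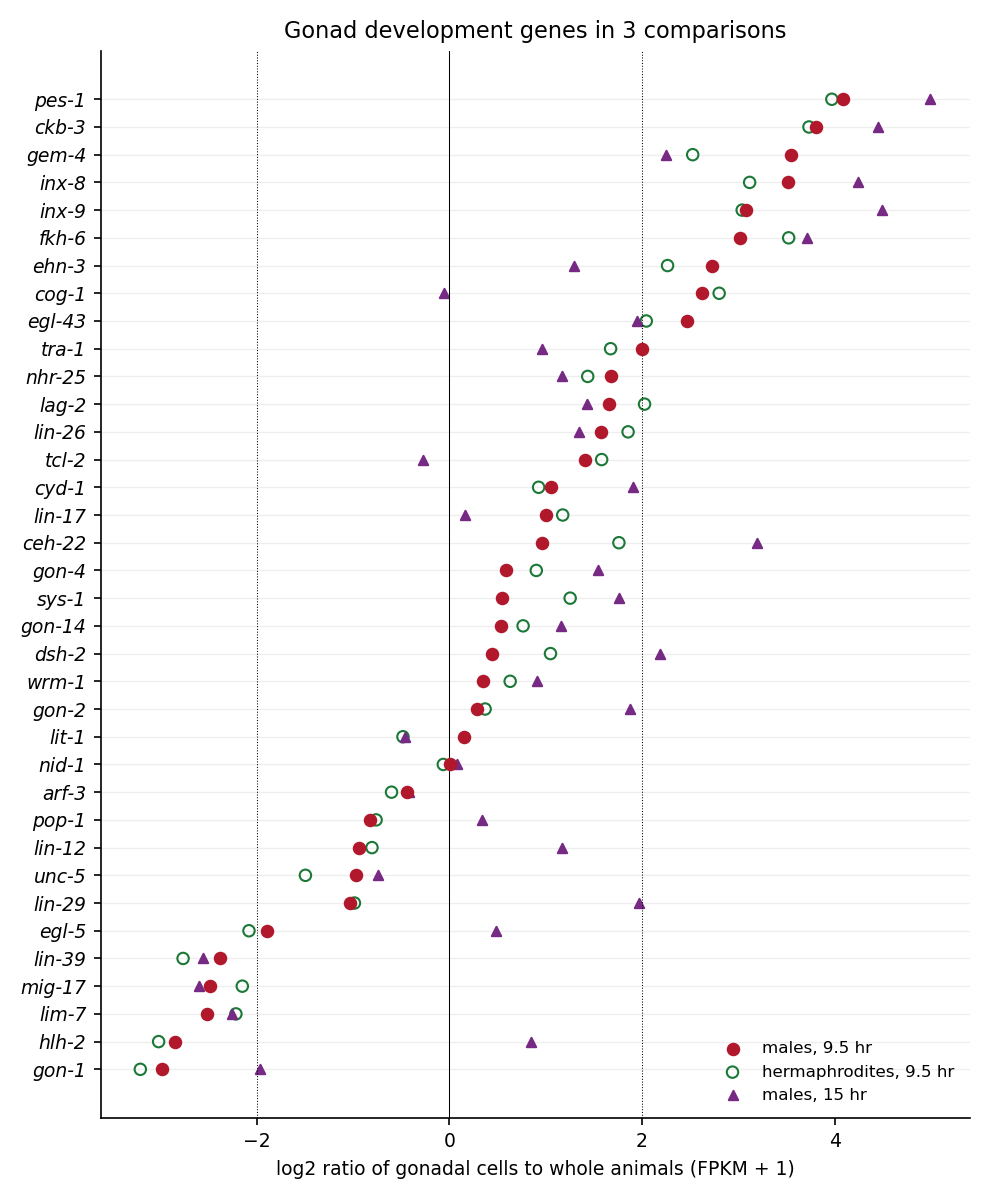
Each line is a gene of the known precursor list or of the further gonadogenesis list, and the horizontal axis is its log2 ratio of gonadal cells to whole animals in males at 9.5 hr, hermaphrodites at 9.5 hr and males at 15 hr. Dotted lines mark ratios of −2 and 2. *pes-1* and *ckb-3* lie beyond 3.5 in each comparison, whereas *hlh-2* lies near −3 at 9.5 hr in both sexes and at 0.85 in males at 15 hr.

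Sex determination genes leaned toward the gonadal cells. Of 15 that passed, 3 were enriched, none was depleted and 12 had a ratio above 0, with a median of 0.80. *xtr-2* (chrX:12315472-12317605) had 82.2 FPKM in gonadal cells against 5.94 in whole animals. The study picked it too for a reporter because of its enrichment in these data, and that reporter was not expressed in the precursors. *sdc-2*, which targets the dosage compensation complex to the X chromosome and represses male fate, had 126 FPKM in gonadal cells against 28.5 in whole animals. *fem-2* and *fem-1*, which act upstream of TRA-1 in male development, had ratios of 1.12 and 0.93. *tra-2* itself, mutated in every animal of both groups, had 49.7 FPKM in gonadal cells against 40.7 in whole animals. *fox-1*, an RNA-binding X signal element, was lowest with 10.1 FPKM in gonadal cells against 39.3 in whole animals. The 9 dosage compensation genes had a median of 0.47, and *sdc-2* was the 1 enriched member.

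Regulators that bind RNA or chromatin were also more often above than below 0. The small RNA pathway had 31 members with a median of 0.58, of which 3 were enriched. With current symbols there were 46 members with 3 enriched and 2 depleted. The enriched ones were *mut-14*, a DEAD-box helicase of RNA interference, with 116 FPKM in gonadal cells against 13.1 in whole animals, the Argonaute gene *sago-1* with 120 and 14.2 FPKM, and *rrf-2*, an RNA-dependent RNA polymerase gene, with 120 and 25.3 FPKM. *prg-2*, a Piwi-type Argonaute gene of the germ line, was the 1 depleted member by deposited name. The 55 chromatin and SET domain genes had a median of 0.56 with 2 enriched, *set-12* (21.5 FPKM in gonadal cells against 2.30 in whole animals) and *sir-2.3*, and 3 of 74 with current symbols, which add C50A2.2 (*cec-2*). In the cell cycle list 49 of 56 genes had a ratio above 0 and the median was 0.47, but none reached 2 in either direction. The highest were *cdk-2* (47.9 FPKM in gonadal cells against 14.2 in whole animals), *spd-1*, *cdc-25.1* and cyclin E (*cye-1*), and the lowest was *cdk-4*, the partner of cyclin D, with 8.80 and 27.9 FPKM.

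F-box proteins, the substrate receptors of SCF ubiquitin ligases, had more enriched members than any other list. Of 83 that passed, 19 were enriched (22.9%) and 6 were depleted, and the median was 0.90 among these genes but −0.40 with a minimum of 1 FPKM and −0.21 with no minimum. Examples were *fbxa-69* (99.7 FPKM in gonadal cells against 7.46 in whole animals), *fbxb-45* (44.6 and 2.26), *fbxa-72* (51.9 and 3.94) and *fbxc-39* (33.2 and 2.24). Among 111 gene name classes with 10 or more members that passed, the *fbxc* class had the highest median, 1.58, with 7 of its 17 genes enriched. Reads from close copies within this family may have been shared among members by the counting.

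Nuclear hormone receptors, ligand-gated transcription factors that are numerous in nematodes, had 14 enriched and 14 depleted members of 180. Each share was 7.78%, against 3.94% enriched and 16.6% depleted among all genes that passed. Their median was 0.67 at the 5 FPKM minimum but −0.14 with no minimum. *nhr-282* had 22.0 FPKM in gonadal cells against 1.36 in whole animals, and *nhr-162* had 34.5 and 3.61 FPKM. *nhr-23*, a receptor of the molting cycle, was the lowest with 4.92 FPKM in gonadal cells against 48.4 in whole animals.

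Homeodomain factors were low in the sorted cells, with 26 of 60 depleted (43.3%), 2 enriched and a median of −1.95. With current symbols 27 of 75 were depleted (36.0%), 5 were enriched and the median was −1.90. C50H2.6 (*ceh-75*), among the added genes, had 102 FPKM in gonadal cells against 3.73 in whole animals, F45C12.15 (*ceh-83*) had 49.7 and 4.69 FPKM and F45C12.2 (*ceh-82*) had 10.3 and 1.48 FPKM. The enriched members by deposited name were *cog-1* and *ceh-8*, an Rx-type gene with 245 FPKM in gonadal cells against 22.0 in whole animals. The lowest were *tab-1*, *mec-3*, a LIM homeodomain gene of touch neurons, *ceh-34*, a Six-type gene at a shared locus, and *ceh-26*, a Prospero-type gene, with 1.57 to 10.1 FPKM in gonadal cells and 19.3 to 72.2 FPKM in whole animals. Of the basic helix-loop-helix genes 12 of 27 were depleted, led by the proneural genes *lin-32* (0.670 FPKM in gonadal cells against 19.7 in whole animals) and *cnd-1* (0.995 and 18.8).

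Patched-related membrane proteins, which have a sterol-sensing domain, had 6 enriched and 3 depleted of 26 (4 depleted of 27 with current symbols). *ptr-16* had 56.2 FPKM in gonadal cells against 3.34 in whole animals. *ncr-2*, a Niemann-Pick type C1 gene of sterol transport at a shared locus, had 108 and 9.56 FPKM, and *che-14*, a Dispatched-related gene of apical secretion, had 54.4 and 4.65 FPKM in the same order. *che-14* is also on the list of hypodermal markers, where it was the 1 enriched member. The hedgehog-related ligands had only 1 enriched member of 19, *grl-3*, and a median of −1.18.

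Basement membrane genes, extracellular proteases and innexins each had members on both sides. Of 17 basement membrane genes, 6 were depleted and the single enriched one was *lam-3*, a laminin alpha chain, with 69.8 FPKM in gonadal cells against 6.66 in whole animals. The other laminin alpha chain gene, *epi-1*, had a ratio of −2.78, and the type IV collagen gene *let-2* had 48.6 FPKM in gonadal cells against 238 in whole animals. Among 26 extracellular protease genes 5 were enriched and 7 depleted (5 and 8 of 31 with current symbols). The astacin gene *nas-7* had 104 FPKM in gonadal cells against 5.22 in whole animals, *adt-1* (ADAMTS) had 29.5 and 2.65 FPKM and *nas-6* had 41.1 and 4.29 FPKM. *nas-37*, an astacin of the molt, was the lowest with 1.64 and 25.3 FPKM. Innexins had 3 enriched members (*inx-8*, *inx-9* and *inx-11*) and 8 depleted members of 22, and the lowest was *inx-6* of the pharynx with 6.09 FPKM in gonadal cells against 54.3 in whole animals. The 26 junction and polarity genes had 1 depleted member, *nrx-1* at a shared locus, none enriched and a median of −0.05, and the 17 integrin and adhesion genes had 5 depleted and none enriched.

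Cuticle collagens were split as well. Of 80 that passed, 10 were enriched (12.5%, against 3.94% of all genes that passed) and 17 depleted (21.2%, against 16.6%). *col-181* had 165 FPKM in gonadal cells against 7.96 in whole animals, and *col-63* (64.1 and 4.96), *col-124* (79.7 and 6.65, at a shared locus) and *col-81* (64.0 and 6.56) followed. The lowest ratios belonged to collagens whose loss alters body shape. *sqt-1* had 1.31 FPKM in gonadal cells against 49.2 in whole animals, *dpy-10* had 2.94 and 56.0 FPKM, *dpy-8* had 2.52 and 47.1 FPKM, and *dpy-9* had 4.60 and 71.0 FPKM. Whole-animal values of such genes also differed between the sexes in the same table. Of the 17 depleted collagens, 15 (88.2%) had at least a 1 log2 unit higher level in male whole animals than in hermaphrodite whole animals at 9.5 hr, against 7.61% of all depleted genes, which were likewise chosen on the male value. Over the whole collagen list it was 21 of 80 (26.2%), against 2.35% of all genes that passed. *sqt-1* had 49.2 FPKM in male whole animals and 5.93 FPKM in hermaphrodite whole animals. In gonadal cells none of the 17 differed by that much in the same direction. Sex, strain and progress through the larval stage cannot be told apart in that contrast.

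**Figure D3:**
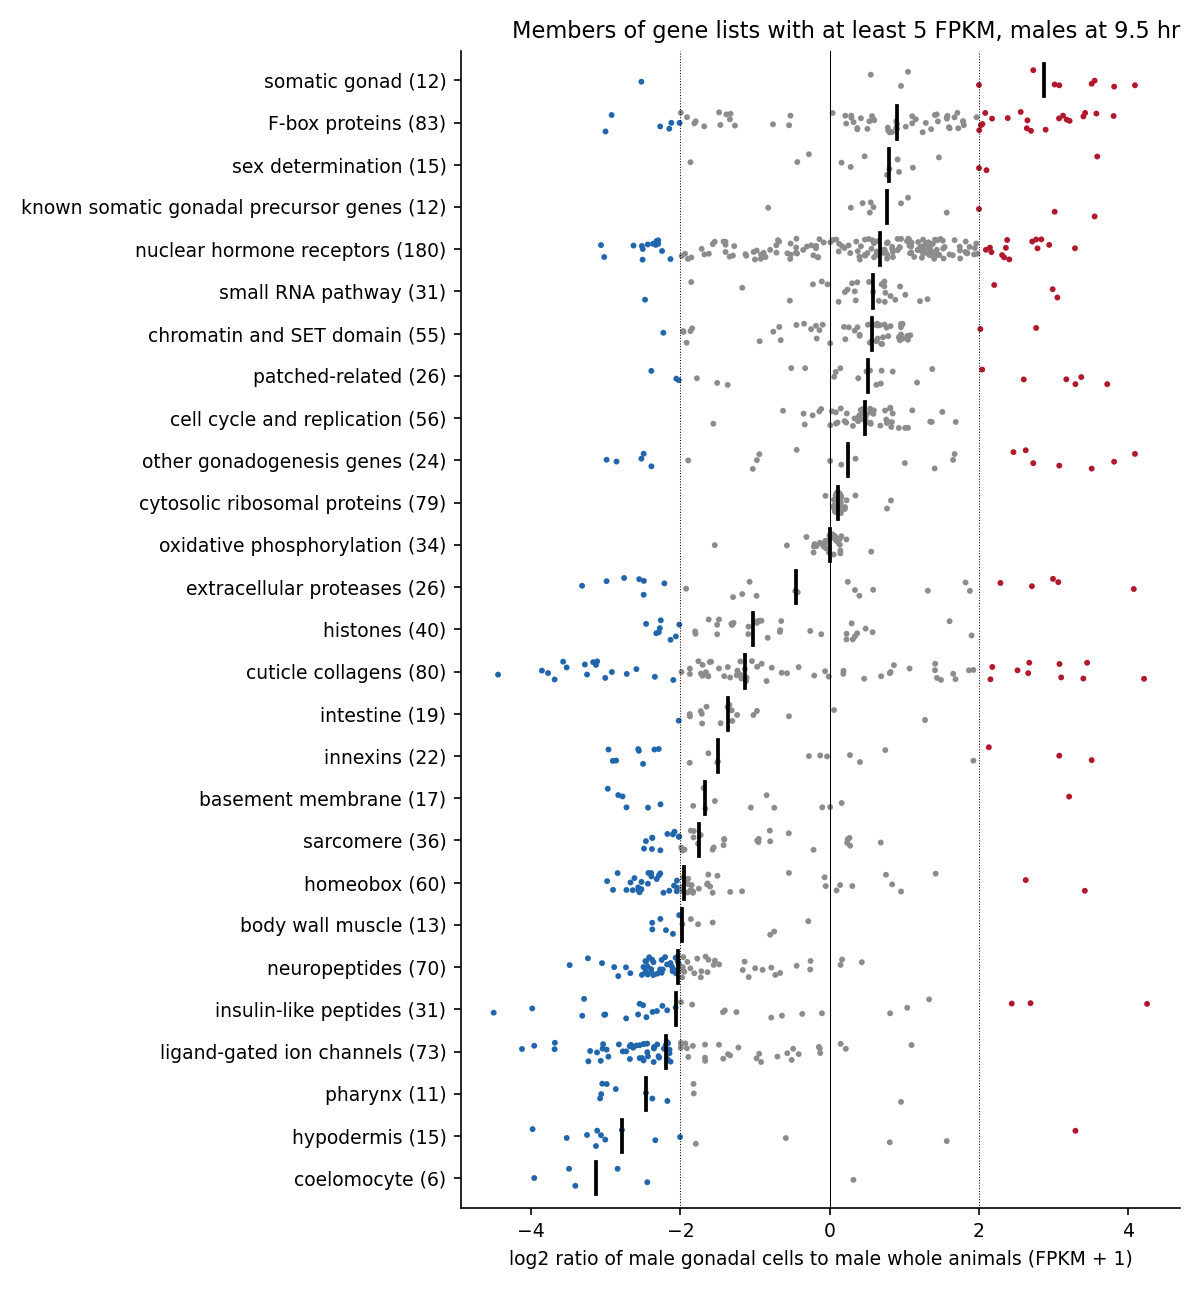
Each point is a member of a gene list with at least 5 FPKM in the higher group, the horizontal axis is its log2 ratio of male gonadal cells to male whole animals, and the black bar is the list's median. Numbers in brackets are members that passed, red points are enriched and blue points depleted. The somatic gonad markers have the highest median, 2.87, and the coelomocyte markers the lowest, −3.12, while 79 ribosomal protein genes lie near 0.11.

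The most extreme single genes were mostly unnamed. Among genes above 0 in both groups, the 15 highest ratios were taken, of which 13 belonged to genes with no current symbol and 7 lay on the X chromosome. T06G6.5 (chrI:12715652-12716573) was highest with 188 FPKM in male gonadal cells against 1.19 in male whole animals, a ratio of 6.43. C03B1.4 (chrX:6364460-6365681) had 137 FPKM in gonadal cells against 1.78 in whole animals. K09C4.9 (chrX:3271341-3271761) had 234 and 4.77 FPKM, and *ocam-1* had 205 and 4.28 FPKM. The other gene of the 15 with a symbol was C42D4.3 (*dbd-13*), at 126 FPKM in gonadal cells against 2.69 in whole animals. Y1B5A.1 (chrX:7085323-7085595), the lowest of the 15 by ratio at 4.53, was the most abundant enriched gene, with 628 FPKM in gonadal cells against 26.2 in whole animals. A further 12 enriched genes were listed at 0 in whole animals and have no fold, the most abundant being F19G12.4 at 168 FPKM in gonadal cells. In all, 270 of the 471 enriched genes (57.3%) had no current symbol, against 38.8% of all genes that passed, and 362 were in none of the lists by deposited name.

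Other abundant enriched genes with a known product came from several processes. *sod-3*, a mitochondrial superoxide dismutase, had 243 FPKM in gonadal cells against 32.9 in whole animals, and *sod-5*, a cytosolic one, had 38.1 and 3.77 FPKM. They were the 2 enriched members of 14 antioxidant enzyme genes, of which 13 had a ratio above 0. *nnt-1*, a proton-pumping transhydrogenase gene that shares its locus span and was named after its values were seen, had 237 FPKM in gonadal cells against 18.2 in whole animals. M04B2.6 (the neuropeptide-like gene *nlp-88*) had 360 FPKM in gonadal cells against 42.4 in whole animals, and R53.7 (*aakg-5*, a gamma subunit of AMP-activated kinase) had 294 and 66.6 FPKM. *mod-5*, the serotonin transporter, was the 1 enriched member of 16 neurotransmitter genes, with 81.9 FPKM in gonadal cells against 14.0 in whole animals.

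**Figure D4:**
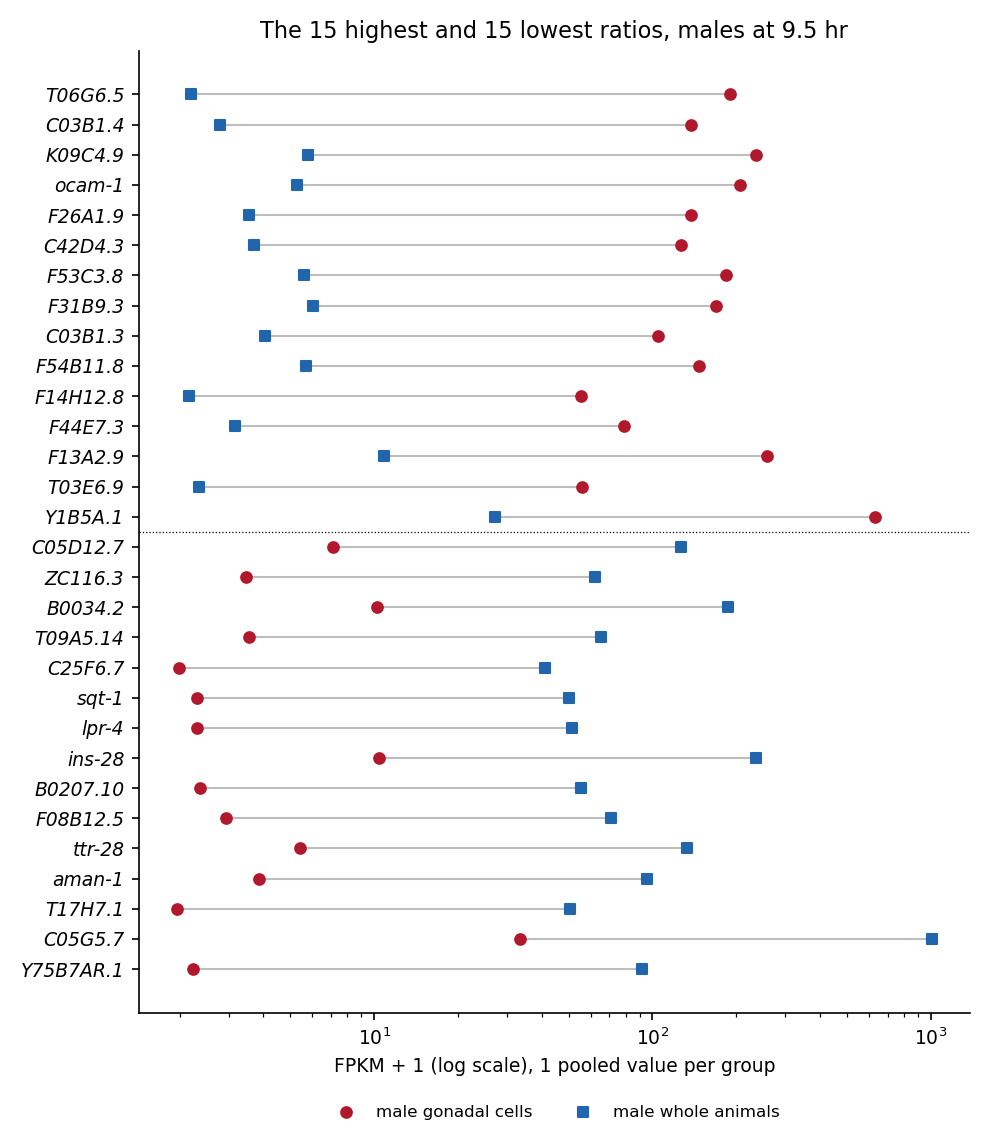
FPKM plus 1 (log scale) of the 15 genes with the highest and the 15 with the lowest ratio, with circles for male gonadal cells and squares for male whole animals, 1 pooled value each. The high genes reach 54.5 to 628 FPKM in gonadal cells, and the low genes reach 40.1 to 1009 FPKM in whole animals.

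Nerve genes were low in the sorted cells. Of 70 neuropeptide genes 38 were depleted (54.3%), none was enriched and the median was −2.03. With current symbols 59 of 106 were depleted (55.7%) and 1 was enriched, M04B2.6 (*nlp-88*, 360 FPKM in gonadal cells against 42.4 in whole animals). *flp-13* had 14.6 FPKM in gonadal cells against 173 in whole animals, *flp-4* had 25.5 and 250 FPKM, *flp-21*, which shares its locus span, had 18.3 and 159 FPKM and *nlp-37* had 27.0 and 206 FPKM. Ligand-gated ion channels had 44 of 73 depleted (60.3%) and none enriched. *lgc-23* was lowest with 1.12 FPKM in gonadal cells against 35.9 in whole animals. Of neurotransmitter genes 11 of 16 were depleted, led by *tdc-1*, the tyrosine decarboxylase of tyramine and octopamine synthesis (3.61 FPKM in gonadal cells against 40.7 in whole animals), and *cho-1*, the choline transporter (7.19 and 65.2). Synaptic vesicle genes had 12 of 25 depleted, intraflagellar transport genes 15 of 32 and potassium channels 23 of 44 (33 of 58 with current symbols).

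The insulin-like peptides were low as a family but had exceptions. Of 31 that passed, 16 were depleted and 3 enriched. *ins-28* was among the lowest genes of the table with 9.37 FPKM in gonadal cells against 234 in whole animals, and *ins-21* (1.79 and 43.2), *daf-28* (ratio −3.31) and *ins-22* (4.10 and 48.9) followed. The enriched members were *ins-11* (31.7 FPKM in gonadal cells against 4.06 in whole animals), *ins-19* (10.6 and 1.13) and *ins-23*, which had 18.1 FPKM in gonadal cells and was listed at 0 in whole animals. *ins-21*, *ins-22* and *ins-23* lie close together on chromosome III, and *ins-23* had the opposite sign to the others. In hermaphrodites at 9.5 hr *ins-19* and *ins-23* had ratios of −0.59 and −0.89.

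Muscle, skin and immune genes followed. Of 36 sarcomere genes 11 were depleted, none was enriched and the median was −1.75, as for *myo-3*, a body wall myosin gene, with a ratio of −2.38. In the pharynx list 8 of 11 were depleted (9 of 12 with current symbols), including *phat-6* with 34.0 FPKM in gonadal cells against 288 in whole animals. Of 59 antimicrobial effector genes 23 were depleted (39.0%), and 24 of 62 with current symbols. The intestinal list differed from these, with 1 of 19 depleted and a median of −1.36, and *elt-2*, the intestinal GATA factor, had 9.57 FPKM in gonadal cells against 3.36 in whole animals. Cathepsin-type proteases were similar, with 13 of 15 at −1 or lower, where 32.7% of all genes lay, and none at −2. Among the lowest genes overall were *aman-1*, a lysosomal alpha-mannosidase (2.87 FPKM in gonadal cells against 94.6 in whole animals), the transthyretin-related gene *ttr-28* (4.43 and 132), the lipocalin-related gene *lpr-4* (1.32 and 50.3) and Y75B7AR.1 (1.23 and 91.0), the lowest among genes above 0 in both groups. In hermaphrodite whole animals at 9.5 hr *lpr-4* and Y75B7AR.1 had only 7.64 and 14.3 FPKM, and their hermaphrodite ratios were −0.89 and −1.80. *aman-1* and *ttr-28* had hermaphrodite ratios of −3.95 and −2.83. Of the 15 lowest genes, 8 were at −2 or less in hermaphrodites at 9.5 hr and 10 in males at 15 hr. A further 52 depleted genes were listed at 0 in gonadal cells and have no fold, the most abundant being C53A5.14 at 119 FPKM in whole animals.

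Genes of basic cell functions other than histones were nearly even. The 79 cytosolic ribosomal protein genes had no call and a median of 0.11, with ratios between −0.06 and 0.82. The 31 proteasome genes had a median of 0.29 and the 34 respiratory chain genes 0.00, again with no call. Matching by current symbols added 1 enriched proteasome gene, F59B2.5 (*rpn-6.2*), with 133 FPKM in gonadal cells against 7.67 in whole animals. It also added 64 mitochondrial ribosomal protein genes with no call and a median of 0.55. Histone genes were lower, with a median of −1.03 and 30 of 40 below 0. Of the 40, 8 were depleted (20%, against 16.6% of all genes that passed). The 166 genes with at least 400 FPKM in the higher group included 4 enriched (2.41%) and 8 depleted (4.82%), lower shares than in the whole table.

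Ribosome assembly and translation genes were slightly above 0. Of 21 nucleolar and ribosome biogenesis genes 19 had a ratio above 0, with a median of 0.77, and of 29 aminoacyl-tRNA synthetase genes 28 did, with a median of 0.40. None of the 20 genes of the vacuolar proton pump was above 0, and their median was −0.44 with no call. Detoxification enzymes (cytochrome P450, glucuronosyltransferase, glutathione transferase and flavin monooxygenase genes) had 6 enriched and 10 depleted of 106, with a median of −1.13. Chemoreceptor genes, of which 47 of 1334 passed the minimum, had 2 enriched and 16 depleted.

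Called genes were unevenly placed. On the X chromosome 28.7% of genes that passed were depleted and 5.16% enriched, with a median of −1.04. On the autosomes depleted shares ran from 10.4% on chromosome III to 20.1% on chromosome V, enriched shares from 2.82% on chromosome I to 4.93% on chromosome II, and medians from −0.21 to 0.30. The X chromosome thus had the highest share of both calls, as a description without a test.

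Enriched genes also tended to be neighbours. Of the 471, 160 (34.0%) stood in 70 runs of 2 or more adjacent enriched genes, and the next gene along the chromosome was enriched after 19.1% of enriched genes, against 3.94% of all genes that passed. The longest run held 7 genes at chrV:4374960-4402001, from F32D1.7 to F13A2.5, with ratios of 3.16 to 4.57. Within it F13A2.2 reached 463 FPKM in gonadal cells against 20.0 in whole animals. A run of 5 at chrII:3617815-3681418 had ratios of 2.02 to 3.94. Another on chromosome II (chrII:986010-1044032) held *fbxc-40*, *fbxc-39*, *fbxc-42* and *fbxb-45*, with ratios of 2.89 to 3.80. A run on chromosome V (chrV:6983393-6991843) held *nhr-163*, *nhr-139*, *nhr-140* and *nhr-162* with ratios of 2.09 to 2.94. Depleted genes stood in 408 runs with 1013 genes (51.0%), the longest of 9 genes on the X chromosome from C16E9.1 to *ubc-17*, and the next gene was depleted after 30.5% of them, against 16.6%. Whether the neighbours share a transcript or resemble each other in sequence was not tested.

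**Figure D5:**
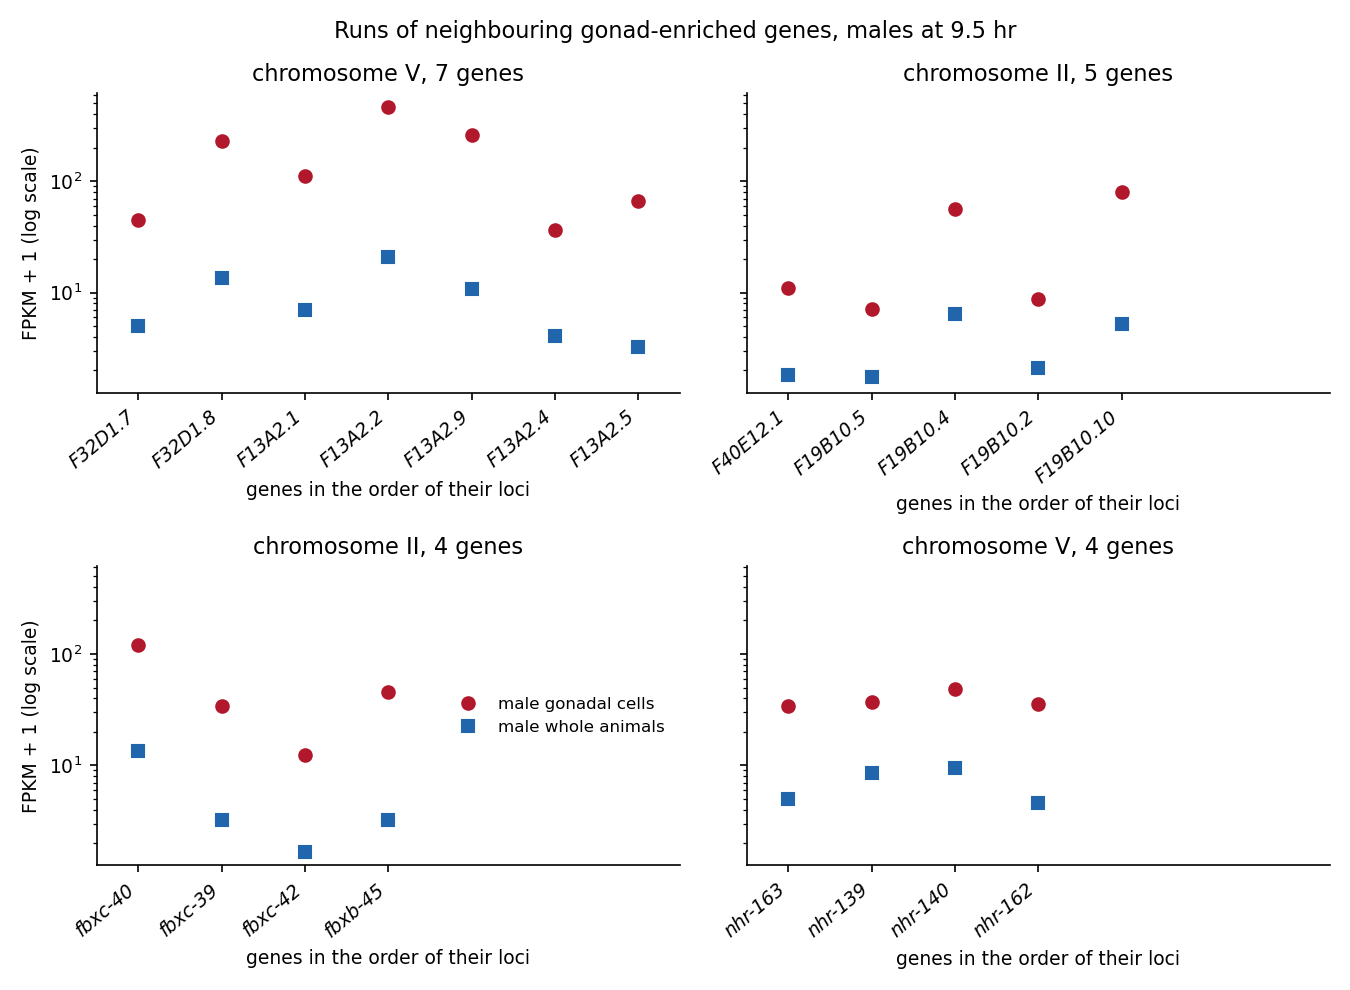
FPKM plus 1 (log scale) of the genes in the 4 longest runs of neighbouring enriched genes, in the order of their loci, with circles for male gonadal cells and squares for male whole animals. In each run every gene is higher in gonadal cells, and in the 7-gene run the ratios lie between 3.16 and 4.57.

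The same ratio was formed from samples that are not part of the male comparison at 9.5 hr, namely hermaphrodite cells at 9.5 hr (gonadal cells of strain DZ685 with *xol-1(y9)* and *rdIs4*, against *xol-1* whole animals without the array, 3 samples each) and daughters of Z1 and Z4 from DZ683 males at 15 hr (2 samples per group). Of the 471 genes enriched in males at 9.5 hr, 307 (65.2%) had a ratio of 2 or more in hermaphrodites, against 3.22% of all genes that passed here, and 460 were above 0, against 51.4%. In males at 15 hr it was 192 (40.8%), against 2.97%, and 412 were above 0, against 52.5%. Of the 1985 depleted genes, 1416 (71.3%) had −2 or less in hermaphrodites, against 16.8%, and 1281 (64.5%) in males at 15 hr, against 16.5%. The median ratio of the enriched genes was 2.73 in males at 9.5 hr, the values on which they were chosen. It was 2.31 in hermaphrodites and 1.77 in males at 15 hr. Lower ratios outside the comparison used for choosing follow in part from that choice. Differences of ratio between these comparisons were not tested, and the tables of both times were normalized apart, so only ratios are set side by side across times.

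Some genes were enriched in males at 9.5 hr with much lower ratios in hermaphrodites. M04B2.6 had 360 FPKM in male gonadal cells against 42.4 in male whole animals, whereas hermaphrodites had 129 FPKM in gonadal cells against 96.3 in whole animals. T06G6.5, the gene with the highest male ratio, had nearly the same gonadal level in hermaphrodites (189 FPKM) but 51.8 FPKM in hermaphrodite whole animals, for a ratio of 1.85. C18H9.5, named after its values were seen, had 47.2 FPKM in male gonadal cells against 6.42 in male whole animals, and 14.0 FPKM in gonadal cells against 11.5 in whole animals of hermaphrodites. In all, 19 of the enriched genes had a hermaphrodite ratio under 0.5. Among them *nspa-2*, K09C4.2 and B0554.3 were listed at 0 in both hermaphrodite groups and have no fold there. *tra-1* had a hermaphrodite ratio of 1.67, and *pes-1*, *ckb-3* and *fkh-6* had 3.97, 3.73 and 3.52.

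Low ratios were more numerous in males at 15 hr than in hermaphrodites at 9.5 hr. Of the genes chosen as enriched at 9.5 hr, 91 had a ratio under 0.5 in males at 15 hr. Some of these, such as *nspa-2* and K09C4.2, were listed at 0 in both male groups at 15 hr and have no fold there. *nas-7* was 4.07 at 9.5 hr and −0.15 at 15 hr, *adt-1* was 3.06 and −0.21, and *cog-1* was 2.63 and −0.05. At 15 hr *nas-7* had 44.3 FPKM in gonadal cells against 49.4 in whole animals. *adt-1* had 34.2 and 39.8 FPKM and *cog-1* had 25.6 and 26.7 FPKM in the same order. Of the depleted genes 42 were above 0 at 15 hr, among them transcription factor genes. *lin-32*, an Atonal-type proneural gene, had a ratio of −3.63 at 9.5 hr and 3.59 at 15 hr, where it had 205 FPKM in gonadal cells against 16.1 in whole animals. *hlh-2*, whose product pairs with such factors, was −2.86 at 9.5 hr and 0.85 at 15 hr. *ddr-2*, a discoidin domain receptor gene of the basement membrane list, was −2.83 and 1.06. The cell cycle list had medians of 0.47 in males at 9.5 hr, 0.78 in hermaphrodites at 9.5 hr and 1.56 in males at 15 hr.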

How the data were processed

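RNA from sorted gonadal cells and from dissociated whole larvae was extracted in TRIzol, depleted of rRNA and sequenced as single-end reads without poly-A selection. The authors mapped reads to ce10 with TopHat 1.4.1 and deposited, from Cuffdiff 2.1.1, 1 FPKM value per gene and group, pooled over 3 samples at 9.5 hr. The submitters' processing notes also name CASAVA 1.8 and Picard 1.56. Pooling means that replicate spread and per-sample depth cannot be had from these files, and no test over samples was run. The tables also hold the authors' fold changes, test statistics, p-values and significance flags, which come from the authors' own comparisons, and none of these was used.

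FPKM, as deposited, is a read count per kilobase of transcript and per unit of mapped reads. Ratios were log2((gonadal FPKM + 1)/(whole FPKM + 1)) for genes with at least 5 FPKM in the higher group, called at 2 and −2 (4-fold). The table has 19862 entries, of which 1 has no gene name and held 0.245% of the gonadal and 0.264% of the whole-animal FPKM sum; it was left out. The FPKM sums were 723330 for gonadal cells and 697945 for whole animals. Lists were matched by deposited gene name and, as an alternative chosen after seeing the data, by current RefSeq symbol too, and coordinates are those of the deposited tables. Loci shared by overlapping genes are named as such where they touch a result.

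The text names the 15 highest and 15 lowest ratios, up to 4 members at either end of a described list (any member of a short list), the study's known precursor genes and members of described runs; any other gene was chosen after its values were seen. Gene lists and members were chosen with earlier results of these data known. Calculations used Python 3.11.15, numpy 2.4.6 and pandas 2.3.3. Alternatives were other pseudocounts, minimums, a lower fold rule, scaling, centring, and leaving out genes at 0 or merged entries.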

Additional observations from a re-analysis of the deposited data

How the results depend on the processing

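The counts of 471 enriched and 1985 depleted genes moved most with the pseudocount and the fold rule. With a pseudocount of 5 they were 262 and 741, and with a ratio of 1 in place of 2 they were 1692 and 3914. With a minimum of 20 FPKM the depleted count was 1239 and the enriched count 372. Scaling both groups to the same FPKM total gave 442 and 2094, and centring on the median gene gave 434 and 2115; enriched genes were 19.2% of all calls in the values reported, 30.2% at a ratio of 1 and 26.1% with a pseudocount of 5. List medians changed sign as follows. A minimum of 20 FPKM gave 0.58 for extracellular proteases, 0.064 for cell junction and polarity genes, 0.51 for MATH and BTB proteins and 0.23 for germline markers. A minimum of 1 FPKM gave −0.40 for F-box proteins and −0.17 for lipid metabolism, and no minimum gave −0.21 and −0.22 for these and −0.14 for nuclear hormone receptors. The energy metabolism medians were at 0.00 in the values reported. For oxidative phosphorylation, median log2 ratio, scaling gave −0.048 and centring −0.060. For glycolysis and TCA cycle, median log2 ratio, they gave −0.052 and −0.063. No called gene among the 585 named genes changed sign, which a change of pseudocount or minimum cannot cause. Named genes without a call were not checked for a change of sign. With a pseudocount of 5, 103 named genes lost a call, and 6 did so with scaling, *tra-1* among them. Matching list members by current symbol too, an alternative chosen after seeing the data, changed the sign of no list median. The causes were not tested.

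No paired analysis was possible because the deposited tables hold 1 pooled value per group, and leaving out single replicates was not run on the same ground. Promoter letters of called genes were not examined. Low FPKM values cannot be given a precision without read counts.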

Other observations

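The Wnt list had a median ratio of −0.22, with 3.45% of its genes enriched and 13.8% depleted. Over all genes that passed, the shares were 3.94% and 16.6%, so the called Wnt genes were about as frequent as in the whole table. The Notch list had a median of 0.12, with 9.52% enriched. In the Wnt list *mom-1*, a Porcupine-type acyltransferase of Wnt-secreting cells, was the 1 enriched gene of 29, with 27.3 FPKM in male gonadal cells against 4.47 in male whole animals. The Wnt ligand genes *cwn-2* (4.02 and 30.8 FPKM) and *egl-20* (3.08 and 16.6 FPKM), the Frizzled gene *cfz-2* (6.50 and 38.1 FPKM) and the beta-catenin gene *bar-1*, at a locus it shares (4.85 and 28.3 FPKM), were the 4 depleted ones, with the gonadal value first in each pair. In the Notch list the enriched genes were *dsl-3*, a ligand gene with 10.3 FPKM in gonadal cells against 1.15 in whole animals, and *lst-1*, a Notch target of the germ line, with 82.7 and 19.8 FPKM; none of 21 was depleted. Of 12 heterochronic genes, which time larval events, *lin-46* was enriched (87.2 FPKM in gonadal cells against 10.1 in whole animals) and *hbl-1*, a Hunchback-type gene, was depleted (6.56 and 52.9 FPKM). Each was 8.33% of that list, whose median was −0.73.

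The 2 enriched potassium channel genes went against their family, in which 23 of 44 were depleted. They were 4.55% of the list, against 3.94% enriched among all genes that passed. *irk-2*, an inward rectifier gene at a locus it shares, had 117 FPKM in gonadal cells against 15.1 in whole animals, and *twk-22* had 32.0 and 5.40 FPKM. Both had ratios above 2 in hermaphrodites at 9.5 hr (2.96 and 2.77) and in males at 15 hr (3.85 and 2.27). Among G protein genes *gpa-8*, an alpha subunit gene, had 55.6 FPKM in gonadal cells against 4.42 in whole animals, while 13 of 49 were depleted.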
